A study of Homo sapiens with 8 samples.

Results

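A rise in glucose from 25 to 50 mM was followed by RNA sequencing in AC16 cells, a proliferating human line that arose by fusion of ventricular heart muscle cells from adult tissue with a transformed fibroblast line. The comparison uses 4 of the 8 libraries of the series. In 2 of them (25 mM, replicates 1 and 3) cells stayed at the 25 mM D-glucose in which the line had been kept for at least 3 passages. In the other 2 (25 to 50 mM, replicates 2 and 3) cells so maintained were passaged, held 24 h at 25 mM and then given a further 25 mM D-glucose for 24 h. All 4 were grown in DMEM with fetal bovine serum, and no osmotic control and no ERK inhibitor is among the 8 libraries. The other groups, of 2 libraries each from cells kept at 5 mM, one raised to 50 mM by adding 45 mM for 24 h, serve for the test of whether the responses differ. Genes entered the comparison if they reached 1 RPKM (read count corrected for the length of the gene and the depth of the library) in at least 2 of the 4 libraries, which 11422 of the 19479 listed genes did. Per the series' own design text the replicates are technical, and the p-values measure the spread between libraries of these cultures and not between independent cultures.

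Glucose enters cells through carriers such as GLUT1 (SLC2A1) and is phosphorylated by hexokinases, and its phosphorylated forms act on the transcription factors MondoA and ChREBP, whose best-known target is TXNIP. Surplus glucose can also enter the polyol pathway through aldose reductase (AKR1B1), which makes sorbitol, and the hexosamine pathway. The co-activators YAP1 and TAZ (WWTR1), held in check by the Hippo kinases, work with TEAD factors on genes such as CTGF, CYR61 and ANKRD1. Serum response factor (SRF) drives genes of the actin cytoskeleton and of contractile smooth muscle, TAGLN among them.

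The 25 mM libraries held 26673336 and 27168172 reads and the 25 to 50 mM libraries 24579003 and 24983510, recovered from the steps of the RPKM values, so that 3 reads in a gene of 1 kb were worth 0.110 to 0.122 RPKM. Of the cardiomyocyte list's 32 genes 5 reached this filter level (ATP2A2, GJA1, CACNA1C, NPPA and TNNC1) and 8 were at 0 in all 4 libraries, while all 15 fibroblast markers passed. Cardiac troponin T (TNNT2) read 0.0823 and 0.0404 RPKM at 25 mM and 0.0893 and 0 RPKM at 25 to 50 mM, in a line labelled as cardiomyocytes. The level of the 32 cardiomyocyte genes summed to 315.7 to 320.8 RPKM at 25 mM and 320.8 to 344.9 RPKM at 25 to 50 mM. That of the 15 fibroblast markers summed to 6700 to 7033 RPKM at 25 mM and 6673 to 7261 RPKM at 25 to 50 mM. Of 12 endothelial, 12 leukocyte and 10 epithelial markers, 2, 2 and 4 passed, and 2, 6 and 1 were at 0 in all 4 libraries. At 25 mM these lists summed to 118.6 to 121.8, 93.34 to 93.42 and 175.5 to 189.5 RPKM. The leukocyte marker CD68 read 91.7 and 91.3 RPKM at 25 mM and 85.1 and 86.6 RPKM at 25 to 50 mM. Replicate 3 of the 25 to 50 mM group stood apart in GC-rich genes. When genes were split by transcript GC content into 10 bins, in the bin with the highest content (61.76% to 74.06%) it lay a median of 0.27 below its replicate on the log2(RPKM + 1) scale, whereas the 25 mM replicates differed by 0.07 there. The median log2 change after the glucose rise was -0.17 in this bin and -0.02 in the bin with the lowest GC content.

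**Figure D1:**
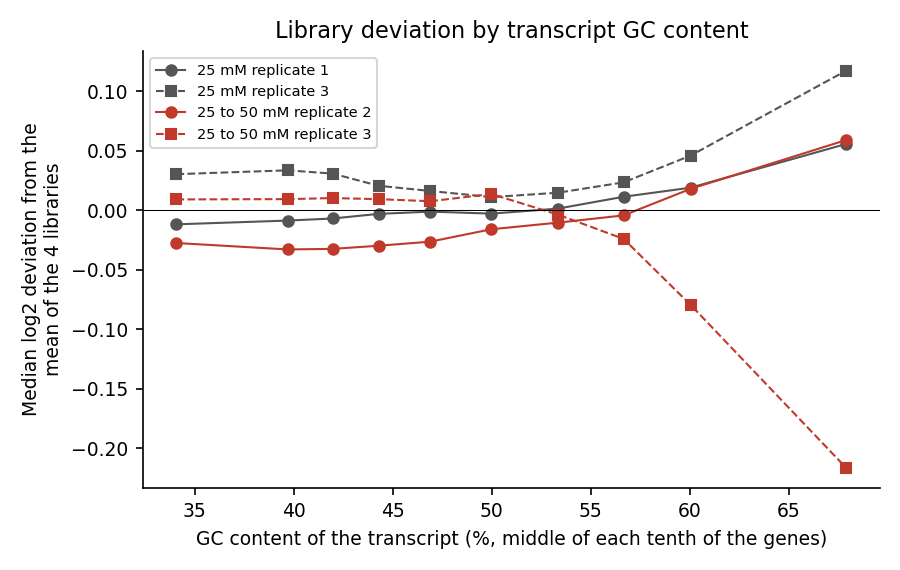
Median deviation of each library from the mean of the 4 libraries on the log2(RPKM + 1) scale (vertical axis) against the GC content of the transcript in percent (horizontal axis, 10 bins of genes). Grey marks the 25 mM and red the 25 to 50 mM libraries. Replicate 3 of the 25 to 50 mM group falls away from the other 3 libraries at high GC content.

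TAGLN was the only gene that passed the test (limma on log2(RPKM + 1), adjusted over all genes tested) after the rise to 50 mM. It encodes transgelin (SM22-alpha), an actin-binding protein of contractile smooth muscle and of activated fibroblasts. TAGLN (Entrez Gene 6876, chromosome 11, 117199294 to 117207465 in GRCh38.p14) read 540.1 and 519 RPKM in the 25 mM libraries and 876 and 862 RPKM in the 25 to 50 mM libraries. Each replicate pair differed by much less than the groups. The level rose 1.64-fold, from 529.7 ± 14.7 to 869 ± 9.80 RPKM (SD, n = 2), a log2 change of 0.71 (SE 0.04, limma adjusted p = 0.022). The gene overlaps PCSK7, a proprotein convertase, by 3129 bases and an uncharacterised long non-coding RNA by 2621 bases, and no source used here states strand-aware counting. PCSK7 read 37.4 and 35.03 RPKM at 25 mM and 37.7 and 35.8 RPKM at 25 to 50 mM. In RNA from whole cultures, more cells making a transcript and more of it per cell cannot be told apart.

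The call of 1 gene corresponds to 0.00876% of the genes tested as higher and 0% as lower. Without the threshold on the adjusted p, an unadjusted p under 0.05 was reached by 320 genes (2.80%) with a higher and 737 (6.45%) with a lower value at 50 mM, against 571 in all that uniform p-values would give. After each library was centred on its median 703 were higher and 416 lower, and 824 and 511 after a correction for GC content. Groups that do not overlap were common among the genes tested, 14.4% with both 25 to 50 mM libraries above both at 25 mM and 29.1% with both below. The method mattered too: limma's voom on the recovered reads called 7 genes higher (0.0613%), among them TAGLN, SERPINB2, THBS1, TPM1, COL4A1 and SLIT2, and 16 (0.140%) when library sizes were scaled to equal medians, with 0 lower in both. The further 9 were ACTG2, CTGF, FN1, TNC, TGFBI, KRT7, KRT34, PPME1 and TNFRSF11B. The middle of the distribution was narrow: the log2 change had a median of -0.03, a 5th percentile of -0.30 and a 95th percentile of 0.14. For 10541 of the 11422 genes (92.29%) the 95% confidence interval of the change lay within 1.5-fold in both directions, and for 98.68% within 2-fold. Estimates of at least 1.5-fold were seen for 10 genes upward and 67 downward. These folds and intervals are of RPKM + 1, which understates changes in the RPKM of low genes. The count of calls depended on single libraries: 0 genes were called without either of the 25 mM replicates, 3 without replicate 3 of the 25 to 50 mM group (SERPINB2 and TAGLN among them), and 777 (85 higher and 692 lower) without replicate 2 of that group, which leaves replicate 3 alone in that group.

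**Figure D2:**
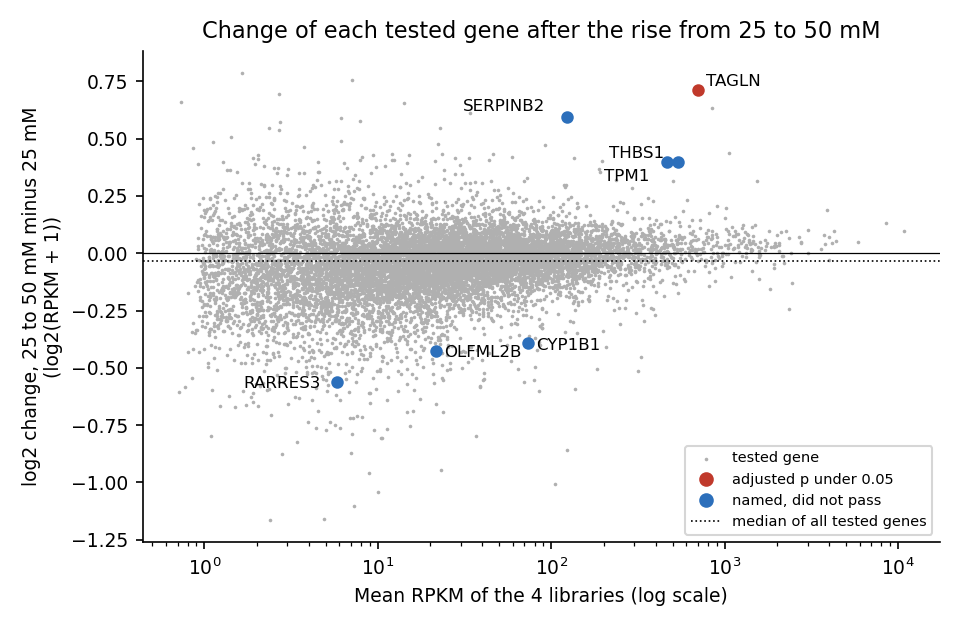
The log2 change from 25 mM to 25 to 50 mM on the log2(RPKM + 1) scale (vertical axis) against the mean RPKM of the 4 libraries (horizontal axis, log scale), 1 point per tested gene. TAGLN (red) passed the test, and the genes in blue did not; the dotted line is the median of all 11422 genes, -0.03.

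The genes named next did not pass over all genes tested. SERPINB2, plasminogen activator inhibitor 2 (Entrez Gene 5055, chromosome 18, 63887705 to 63903888), read 94.6 and 100.2 RPKM at 25 mM and 146 and 149 RPKM at 25 to 50 mM (log2 change 0.59, 95% confidence interval 0.47 to 0.72, limma adjusted p = 0.0864). THBS1, the matrix glycoprotein thrombospondin 1 (Entrez Gene 7057, chromosome 15, 39581079 to 39599466), read 456 and 467 RPKM and then 614 and 605 RPKM (log2 change 0.40, interval 0.30 to 0.50, limma adjusted p = 0.139). The actin-filament gene TPM1, alpha-tropomyosin (Entrez Gene 7168), read 404 and 395 RPKM and then 537 and 518 RPKM (log2 change 0.40, interval 0.29 to 0.50, limma adjusted p = 0.158). In these 3 genes the 25 to 50 mM libraries were the higher ones, as in 14.4% of all genes tested. After the GC correction, an alternative chosen after seeing the data, 5 genes were called higher (0.0439% of 11386) and 0 lower, among them TAGLN, SERPINB2, THBS1 and ANGPTL4, an inhibitor of lipoprotein lipase. ANGPTL4 has a GC-rich transcript (63.33%) and read 9.95 and 11.7 RPKM at 25 mM and 19.2 and 16.03 RPKM at 25 to 50 mM, with a log2 change of 0.65 uncorrected and 0.81 corrected. KRT7, keratin 7, had a still larger estimate; picked out after its values were seen, it read 4.73 and 5.38 RPKM and then 9.44 and 8.97 RPKM (log2 change 0.75, limma adjusted p = 0.214).

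On the lower side no gene passed, and the genes with the smallest p-values and a mean of at least 5 RPKM are given as values. OLFML2B, a secreted olfactomedin-domain protein, read 24.6 and 25.1 RPKM at 25 mM and 18.5 and 18.0 RPKM at 25 to 50 mM (log2 change -0.43, limma adjusted p = 0.269). CYP1B1, a cytochrome P450 of the aryl hydrocarbon receptor response, read 82.8 and 83.3 RPKM and then 66.5 and 59.6 RPKM (log2 change -0.39). RARRES3 and C17orf49 had log2 changes of -0.56 and -0.28. In these 4 genes the 25 to 50 mM libraries were the lower ones, as in 29.1% of all genes tested.

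**Figure D3:**
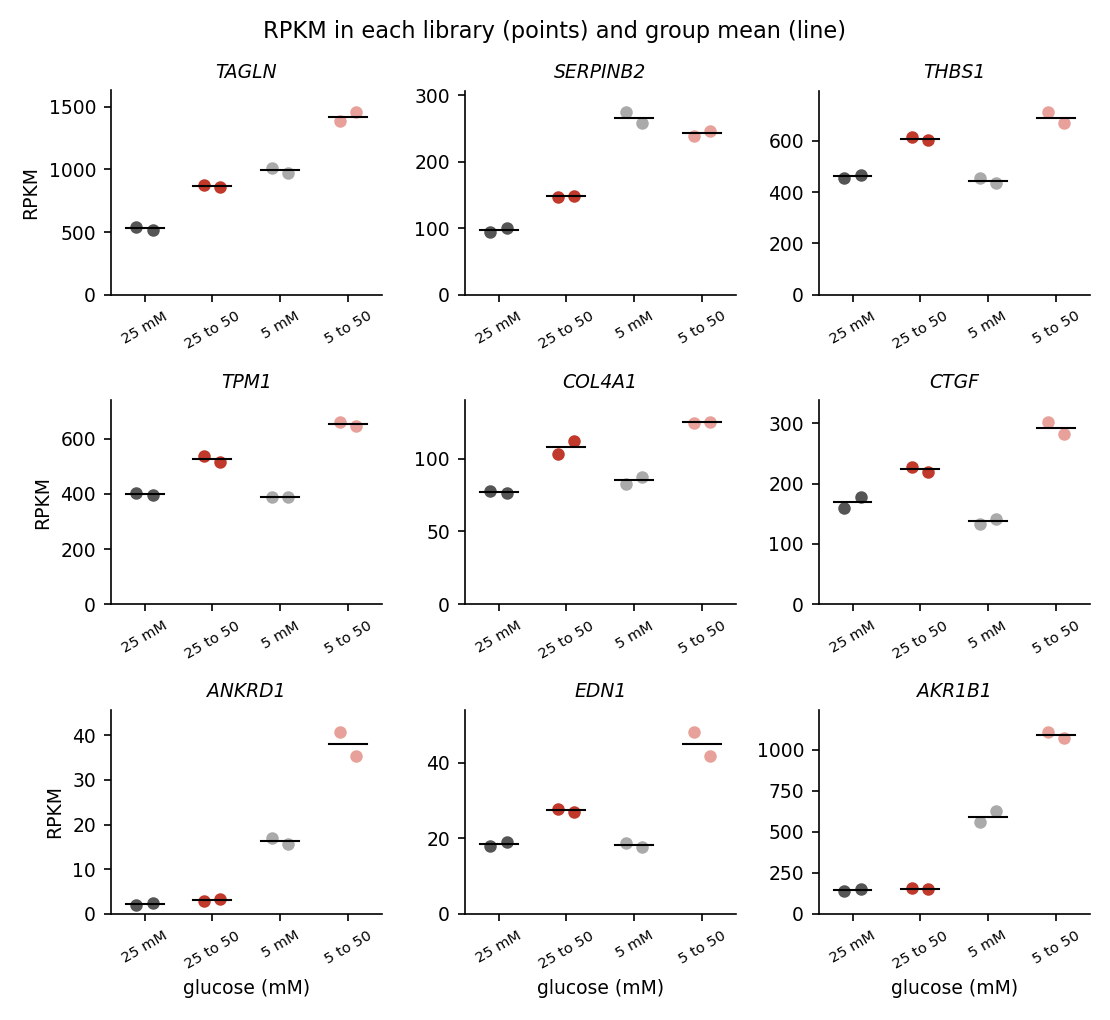
RPKM (vertical axes, from 0) of 9 genes in each of the 8 libraries (points) with the mean of each group of 2 (line), by glucose in mM (horizontal axis). For all 9 genes both libraries at 25 to 50 mM lie above both at 25 mM, as for 14.4% of all genes tested. For AKR1B1 the nearest libraries of the groups read 149 and 149.5 RPKM.

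Promoters were sought for the named higher genes TAGLN, SERPINB2, THBS1 and TPM1 in order of log2 change. Those of SERPINB2 and THBS1 are shown because these genes had an entry at their annotated start. The 250 bases before the annotated start were taken from RefSeq (GRCh38.p14, plus strand) at chr18:63887455-63887704 for SERPINB2 and chr15:39580829-39581078 for THBS1, and capitals mark matches to the motifs searched. These were, on both strands, GGAATG (TEAD), TGACTCA (AP-1), TGGAAA (the core of NFAT and NFAT5 sites), CACGTG (E box) and TTTCNNTTT (the core of interferon response elements).
SERPINB2: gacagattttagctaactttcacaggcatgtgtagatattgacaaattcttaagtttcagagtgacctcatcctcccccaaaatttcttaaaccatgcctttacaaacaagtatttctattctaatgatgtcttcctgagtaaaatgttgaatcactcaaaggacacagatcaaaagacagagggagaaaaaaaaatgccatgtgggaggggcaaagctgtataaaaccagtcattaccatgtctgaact
THBS1: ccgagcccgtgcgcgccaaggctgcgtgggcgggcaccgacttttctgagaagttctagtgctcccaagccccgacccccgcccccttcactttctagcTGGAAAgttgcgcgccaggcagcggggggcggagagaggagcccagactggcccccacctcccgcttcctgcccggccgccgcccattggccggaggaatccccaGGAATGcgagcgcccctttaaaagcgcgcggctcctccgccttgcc
The THBS1 promoter, with 69.6% G and C, held 1 TEAD match ending 41 bases before the start and 1 NFAT core match 151 to 146 bases before it. The SERPINB2 promoter, with 37.2% G and C, held none of the 5 motifs. Among the promoters of 9474 tested genes, 9.45% held the TEAD motif, 13% the NFAT core, 2.37% the AP-1 motif, 9.12% the E box and 5.85% the interferon core. TAGLN and TPM1 were not matched to an entry at their annotated start.

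All 30 listed genes of the actin cytoskeleton and SRF targets were tested, and 1 rose (TAGLN) and 0 fell over all genes tested. At an unadjusted p under 0.05, 13 of 30 had a higher value and 0 a lower one. Of all genes tested, 2.80% were higher and 6.45% lower at that threshold. The median log2 change of the 30 listed genes was 0.13 against -0.03 for all tested genes, and 26 of 30 estimates were positive. This list and those below were chosen with earlier results of these data known. Their counts and medians are therefore descriptions and not independent support. ACTG2, the enteric smooth muscle actin, read 25.0 and 28.7 RPKM at 25 mM and 40.6 and 42.5 RPKM at 25 to 50 mM (log2 change 0.61, limma adjusted p = 0.214). MYL9, a myosin regulatory light chain, read 443 and 455 RPKM and then 560.0 and 557 RPKM (log2 change 0.31), and ACTN1, alpha-actinin 1, 339 and 326 RPKM and then 390 and 396 RPKM (log2 change 0.24). The cytoplasmic actins had log2 changes of 0.13 (ACTB) and 0.19 (ACTG1). SRF itself read 33.8 and 31.6 RPKM and then 38.2 and 34.9 RPKM (log2 change 0.16, interval -0.01 to 0.33). The list's median was 0.17 after centring, 0.10 after quantile normalization and 0.17 after GC correction, and without single libraries it ran from 0.09 (without replicate 3 at 25 mM or replicate 2 at 25 to 50 mM) to 0.16 (without replicate 1 at 25 mM). Of 12 smooth muscle and pericyte markers 9 were tested; beside TAGLN, ACTA2 and MYOCD were higher at an unadjusted p under 0.05, and the median of the 9 was 0.05, with -0.03 to 0.16 without single libraries (25 mM replicates 3 and 1 left out). MYH11, a defining smooth muscle myosin, stayed under the filter at 0.797 and 0.882 RPKM at 25 mM and 0.845 and 0.828 RPKM at 25 to 50 mM. The level of the 12 markers summed to 703 to 735 RPKM at 25 mM and 1045 to 1077 RPKM at 25 to 50 mM. The 11 markers other than TAGLN summed to 194.6 and 183 RPKM at 25 mM and 200.6 and 182.5 RPKM at 25 to 50 mM, so the higher sum was that of TAGLN itself.

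Matrix genes gave no call. Of 30 tested matricellular and matrix proteins 0 passed, and their median log2 change was 0.13. Below an unadjusted p of 0.05, 12 were higher and 1 lower. Over all genes tested, the shares at that threshold were 2.80% higher and 6.45% lower, for this list and the next 3. FN1, fibronectin, read 946 and 849 RPKM at 25 mM and 1219 and 1213 RPKM at 25 to 50 mM (log2 change 0.44, limma adjusted p = 0.227). TNC, tenascin C, read 41.0 and 37.4 RPKM and then 52.95 and 53.4 RPKM (log2 change 0.43, limma adjusted p = 0.269). THBS3, another thrombospondin, had a log2 change of -0.27. Among 18 collagen chains 0 passed, 3 were higher at an unadjusted p under 0.05 and the median was 0.02 (-0.03 without replicate 2 and 0.05 without replicate 3 of the 25 to 50 mM group). The chains of basement membrane collagen led, COL4A1 with 77.8 and 76.7 RPKM and then 103.5 and 112 RPKM (log2 change 0.47, limma adjusted p = 0.206) and COL4A2 with a log2 change of 0.22, while the fibrillar COL1A1 read 1523 and 1526 RPKM and then 1634 and 1347 RPKM. In COL1A1 the groups overlapped. Of 22 TGF-beta ligands, receptors and targets 0 passed, with 3 higher (TGFBI, TGFB2 and INHBA) and 3 lower (SMAD3, SMAD6 and ID2) at an unadjusted p under 0.05 and a median of 0.00 (-0.03 without replicate 1 and 0.04 without replicate 3 at 25 mM). TGFB2, a ligand, read 37.9 and 37.0 RPKM and then 47.6 and 52.3 RPKM (log2 change 0.41). Of 14 integrins 0 passed and 3 were higher at an unadjusted p under 0.05, led by ITGB5 with a log2 change of 0.35.

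The series' title asks about YAP1, TAZ and ERK1/2. Of 25 targets of YAP1 and TAZ 0 passed, and 7 were higher and 0 lower below an unadjusted p of 0.05. Over all genes tested, the shares at that threshold were 2.80% higher and 6.45% lower. The median log2 change of the 25 targets was 0.02 (0.08 without replicate 1 and -0.01 without replicate 3 at 25 mM). CTGF, now CCN2, a secreted matrix regulator (Entrez Gene 1490, chromosome 6, 131948176 to 131951372), read 159 and 179 RPKM at 25 mM and 228 and 219 RPKM at 25 to 50 mM (log2 change 0.40, interval 0.25 to 0.56, limma adjusted p = 0.321). CYR61, now CCN1, of the same protein family, read 953 and 945 RPKM and then 1097 and 1083 RPKM (log2 change 0.20, interval 0.10 to 0.29, limma adjusted p = 0.444). ANKRD1, a muscle ankyrin repeat protein of low level here, read 1.99 and 2.38 RPKM and then 2.84 and 3.42 RPKM (log2 change 0.37, interval 0.07 to 0.68, limma adjusted p = 0.502). In these 3 genes the 25 to 50 mM libraries were the higher ones, as in 14.4% of all genes tested. AMOTL2, an angiomotin that binds YAP1, read 58.5 and 57.6 RPKM and then 58.0 and 48.9 RPKM, with overlapping groups. The transcripts of the co-activators had narrow intervals around small estimates: YAP1 read 92.4 and 98.2 RPKM and then 92.9 and 96.3 RPKM (log2 change -0.01, interval -0.14 to 0.12), WWTR1 had a log2 change of -0.09 (interval -0.25 to 0.06) and TEAD1 one of 0.02 (interval -0.12 to 0.16). Of 27 Hippo pathway components 0 passed, with 1 higher and 1 lower below an unadjusted p of 0.05; FRMD6, an upstream scaffold, was the higher one (log2 change 0.20).

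ERK transcripts and ERK output genes gave no call. MAPK3, which codes for ERK1, read 74.7 and 75.4 RPKM at 25 mM and 69.9 and 73.6 RPKM at 25 to 50 mM (log2 change -0.06, interval -0.19 to 0.06). Transcript levels do not report the phosphorylation of the kinase. Of 18 tested output and feedback genes 0 passed, with 3 higher (CCND1, EPHA2 and ETV4) and 2 lower (PHLDA1 and FOSL1) at an unadjusted p under 0.05. Of all genes tested, 2.80% were higher and 6.45% lower at that threshold. CCND1, cyclin D1, read 18.6 and 21.1 RPKM and then 29.2 and 25.2 RPKM (log2 change 0.43, limma adjusted p = 0.468). The ERK phosphatase DUSP6 read 4.81 and 3.69 RPKM and then 4.01 and 3.53 RPKM, and the ERK antagonist SPRY4 read 2.90 and 2.81 RPKM and then 3.11 and 2.27 RPKM; in both the groups overlapped. Of 14 tested immediate early genes 0 passed and 2 were lower at an unadjusted p under 0.05, EGR1 (30.5 and 36.5 RPKM, then 28.6 and 22.9 RPKM, log2 change -0.37) and ZFP36 (log2 change -0.37). Their median of -0.22 was -0.13 after GC correction, -0.35 without replicate 2 and 0.01 without replicate 3 of the 25 to 50 mM group.

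No listed gene that senses or handles glucose passed the test. TXNIP, which restrains glucose uptake, read 73.9 and 80.3 RPKM at 25 mM and 64.2 and 69.1 RPKM at 25 to 50 mM (log2 change -0.21, interval -0.36 to -0.05, limma adjusted p = 0.502). Its relative ARRDC4 read 1.43 and 1.20 RPKM and then 1.33 and 1.72 RPKM, with overlapping groups. Of 9 tested MondoA and ChREBP targets 0 passed, with 0 higher and 2 lower (TXNIP and ARRDC3) at an unadjusted p under 0.05. Of all genes tested, 2.80% were higher and 6.45% lower at that threshold. The glucose carrier SLC2A1 read 60.8 and 57.9 RPKM and then 71.3 and 69.6 RPKM (log2 change 0.24, interval 0.12 to 0.37, limma adjusted p = 0.453), and LDHA, lactate dehydrogenase A, 819 and 848 RPKM and then 949 and 974 RPKM (log2 change 0.21, limma adjusted p = 0.453). In all, 0 of 25 glycolysis and glucose uptake genes passed, with 3 higher and 2 lower below an unadjusted p of 0.05. HK2, a hexokinase, had a log2 change of -0.05 (interval -0.23 to 0.13). PDK4 read 0.0303 RPKM in 1 library and 0 in the other 3, under the filter.

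Polyol and osmotic genes were tested because added glucose also raises osmolarity. AKR1B1 read 138 and 149 RPKM at 25 mM and 159.5 and 149.5 RPKM at 25 to 50 mM (log2 change 0.11, interval -0.04 to 0.25), and 0 of the 7 tested genes of the polyol list had an unadjusted p under 0.05. The myo-inositol carrier SLC5A3 read 18.5 and 15.8 RPKM and then 16.6 and 19.2 RPKM, and NFAT5, the osmotic transcription factor, had a log2 change of -0.16 (interval -0.42 to 0.09). In SLC5A3 the groups overlapped. SGK1, a kinase that responds to glucocorticoids and salt, read 21.0 and 21.8 RPKM and then 26.4 and 27.6 RPKM (log2 change 0.32, limma adjusted p = 0.444), and the taurine carrier SLC6A6 had a log2 change of 0.30. Of 17 tested hyperosmotic genes 0 passed, with 4 higher and 2 lower below an unadjusted p of 0.05. Over all genes tested, the shares at that threshold were 2.80% higher and 6.45% lower. The median of the 17 genes was 0.05 (0.03 without replicate 3 of either group). Of 10 hexosamine and O-GlcNAc genes 0 passed; OGT, the O-GlcNAc transferase, had a log2 change of -0.17 (interval -0.30 to -0.04).

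Of 8 tested cardiac stress genes 0 passed and 5 were higher at an unadjusted p under 0.05, against 2.80% of all genes tested. The median of the 8 was 0.25, and CTGF and ANKRD1 are 2 of these 5. EDN1, the vasoconstrictor endothelin 1, read 18.0 and 19.0 RPKM at 25 mM and 27.8 and 27.0 RPKM at 25 to 50 mM (log2 change 0.55, interval 0.39 to 0.70, limma adjusted p = 0.206). RCAN1, an inhibitor of calcineurin, read 48.2 and 41.0 RPKM and then 50.6 and 57.7 RPKM (log2 change 0.28, interval 0.04 to 0.51). NPPB, B-type natriuretic peptide, stayed under the filter at 0 to 0.198 RPKM in the 4 libraries. Of 9 tested replication-dependent histones 0 passed and 3 were higher at an unadjusted p under 0.05, with a median of 0.30, which was 0.16 without replicate 1 and 0.21 without replicate 3 at 25 mM. HIST1H1C, a linker histone, read 10.1 and 10.3 RPKM and then 12.9 and 14.9 RPKM (log2 change 0.41, limma adjusted p = 0.467).

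**Figure D4:**
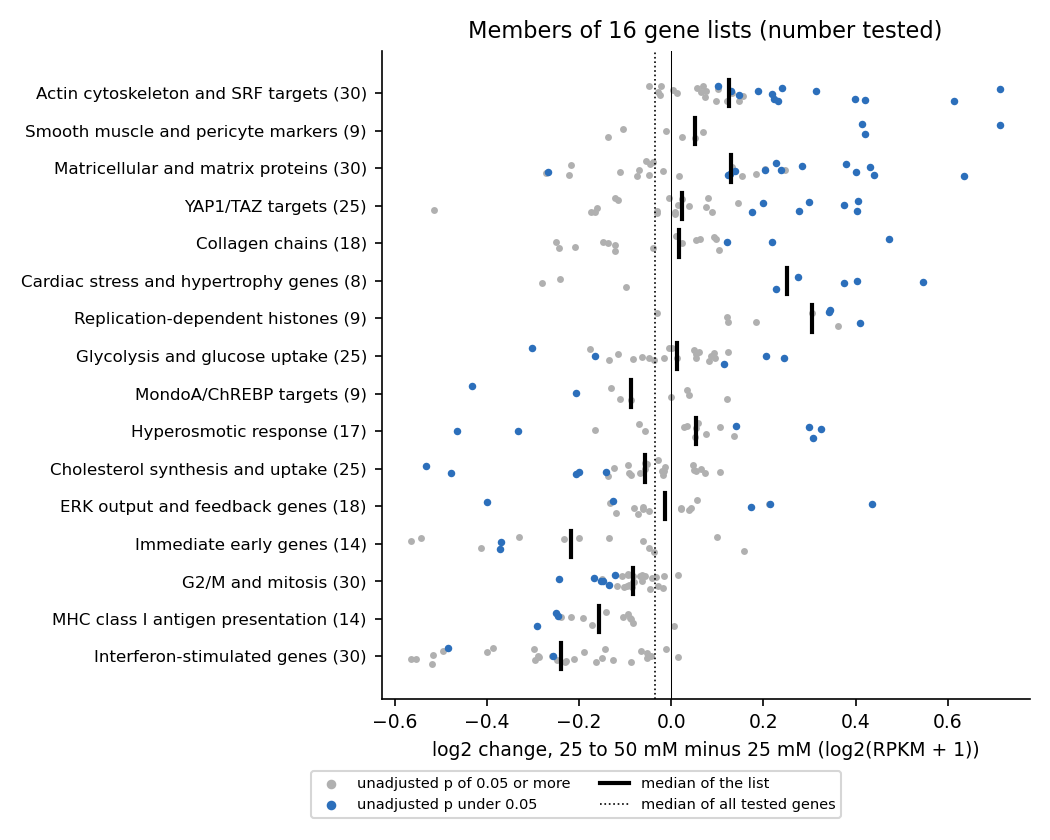
The log2 change of each tested member of 16 gene lists (points; horizontal axis, log2(RPKM + 1) scale; number tested in brackets), with the median of each list (bar) and of all tested genes (dotted line, -0.03). Actin and matrix lists reach to the right of the line, with TAGLN at 0.71, and the interferon list lies to its left with a median of -0.24.

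The interferon-stimulated, mitotic and sterol lists had mostly lower estimates, with 0 genes passing in each. Of all genes tested, 6.45% (737) were lower at an unadjusted p under 0.05, and 416 were after centring. Of 30 tested interferon-stimulated genes 29 had a negative estimate and 2 (PARP9 and STAT2) a lower value at an unadjusted p under 0.05, with a median of -0.24. These genes separated the 25 mM replicates more than the glucose groups: replicate 3 lay a median of 0.49 above replicate 1 at 25 mM. IFIT1, an antiviral RNA-binding protein, read 15.96 and 27.3 RPKM at 25 mM and 18.4 and 16.3 RPKM at 25 to 50 mM (log2 change -0.26, interval -0.80 to 0.28). MX1, an antiviral GTPase, read 5.50 and 11.8 RPKM and then 6.53 and 4.56 RPKM. The list's median was -0.46 without replicate 1 and 0.02 without replicate 3 of the 25 mM group. Of 30 mitotic genes 29 had a negative estimate and 6 a lower value at an unadjusted p under 0.05, with a median of -0.08 that was -0.04 after centring and -0.06 without replicate 2 of the 25 to 50 mM group. NUSAP1, a spindle protein, read 185.5 and 196 RPKM and then 167 and 172 RPKM (log2 change -0.17), and UBE2C, which feeds the anaphase-promoting complex, 395 and 437 RPKM and then 373 and 330.2 RPKM (log2 change -0.24). Of 25 sterol synthesis and uptake genes 5 were lower at an unadjusted p under 0.05, with a median of -0.06 that was -0.01 after centring. HMGCS1, of the mevalonate pathway, read 140.0 and 152 RPKM and then 126 and 126 RPKM (log2 change -0.21).

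Whether the response differed from that of cells kept at 5 mM was tested as a difference between the 2 log2 changes over 11941 genes and all 8 libraries. The rise from 5 mM added 45 mM and not 25 mM, so the starting level and the step cannot be told apart. In this test 1 gene was called with a larger change from 25 mM (0.00837%) and 2 with a larger change from 5 mM (0.0167%). SERPINB2 was the former. It read 274 and 259 RPKM at 5 mM and 239 and 245 RPKM at 5 to 50 mM, a log2 change of -0.14 against 0.59 from 25 mM (difference 0.73, limma adjusted p = 0.0361). PRSS35, a secreted serine protease homologue, read 1.03 and 1.48 RPKM at 25 mM, 0.983 and 0.838 RPKM at 25 to 50 mM, 3.36 and 4.21 RPKM at 5 mM and 14.6 and 15.2 RPKM at 5 to 50 mM (difference -1.97, limma adjusted p = 0.0361). The third gene was RANBP3L, under the naming rule's minimum level and named after its values were seen; it passed the filter only through the 5 to 50 mM libraries (3.35 and 3.47 RPKM, against at most 0.544 RPKM in the other 6), so its place in this count supports nothing. All 3 calls were lost with a pseudocount of 0.1 or 0.5, and the counts without single libraries ran from 0 to 6: 6 without replicate 1 of the 25 mM group and 0 without any other one.

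Several genes named above had smaller estimates from 25 than from 5 mM without passing this test. CTGF had a log2 change of 0.40 from 25 mM and 1.08 from 5 mM (difference -0.68, limma adjusted p = 0.228). EDN1 had 0.55 and 1.249 (difference -0.70, limma adjusted p = 0.239), and AKR1B1 0.11 and 0.88 (difference -0.78, limma adjusted p = 0.126). After GC correction AKR1B1 and ME1, malic enzyme 1, were called for the difference beside PRSS35, RANBP3L and SERPINB2. IL6, an inflammatory cytokine, read 7.33 and 8.12 RPKM at 25 mM and 7.90 and 7.52 RPKM at 25 to 50 mM (log2 change -0.00), against 0.82 from 5 mM (difference -0.82, limma adjusted p = 0.228). TAGLN had 0.71 from 25 mM and 0.52 from 5 mM (difference 0.20, limma adjusted p = 0.712). COL4A1 had 0.47 and 0.55 (difference -0.07, limma adjusted p = 0.97). Of the 36 interferon-stimulated genes in this test 0 were called, with a median difference of -0.84. Only 30 of the 36 reached the filter within the 25 mM and 25 to 50 mM libraries. The others entered through the libraries of cells kept at 5 mM, so this median is a description only. Without replicate 1 of the 25 mM group, IFIT1, IFIT2, IFIT3, OASL and USP18 were called beside PRSS35. At an unadjusted p under 0.05 the difference was positive for 274 genes and negative for 447.

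**Figure D5:**
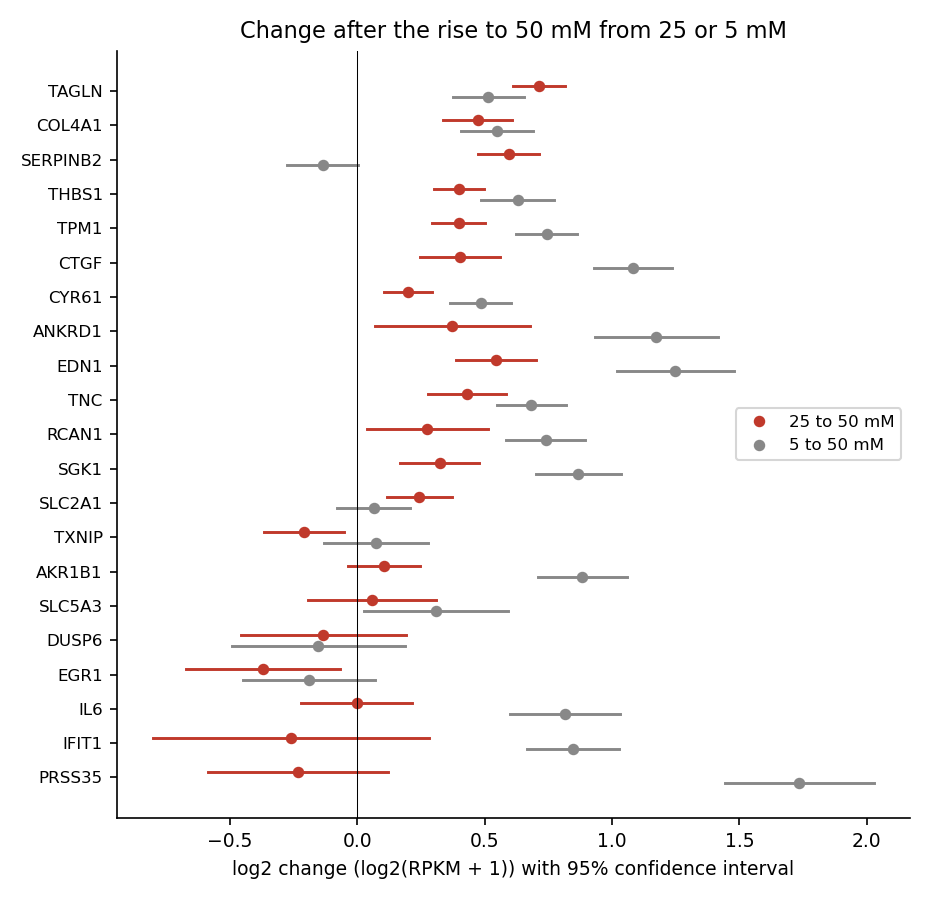
The log2 change of 21 genes (log2(RPKM + 1) scale, horizontal axis) after the rise from 25 mM (red) and from 5 mM (grey), each with its 95% confidence interval from 2 libraries per group. SERPINB2 lies at 0.59 from 25 mM and -0.14 from 5 mM, and PRSS35 lies at -0.23 from 25 mM and 1.74 from 5 mM.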

How the data were processed

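Total RNA of AC16 cells was sequenced, and the authors deposited 2 tables of RPKM values, 1 per starting glucose, with Entrez numbers and symbols. The submitters' processing notes name STAR and hg38; versions, counting tool and annotation are not given in the sources used here. Per the file values, reads were whole within 0.01 for 100% of genes above 0, which gave the library totals; lengths are mostly coding lengths (83.55% multiples of 3). Coordinates are RefSeq's (19432 genes matched), GC content that of the longest GENCODE protein-coding transcript.

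Values were analysed as log2(RPKM + 1), which understates changes of low genes, with limma 3.58.1 in R 4.3.3 (moderated two-sided test with a mean-variance trend, Benjamini-Hochberg adjustment, threshold 0.05), each rise on its own 4 libraries and their difference on all 8. limma was tested on simulated reads with the same spread setting for every gene and no GC deviation of a library. That simulation therefore does not cover the GC deviation seen in these libraries. The members and the 42 gene lists (852 genes) were chosen with earlier results of these data known. Named were a list of genes of interest, up to 12 called genes per direction of mean at least 5 RPKM (filled to 5 by unadjusted p), the leading member of each list and called differences; some items are not reported here. Alternatives were other pseudocounts, filters, scalings and variance models, limma's voom on recovered reads, a joint fit, leaving out libraries and, added after seeing the data, a GC spline (5 degrees of freedom), voom with library sizes scaled to equal medians and list medians without single libraries. Libraries of each group differed beyond counting error (chi-square per degree of freedom 6.73 at 25 mM and 7.84 at 25 to 50 mM), so none was taken as a copy.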

Additional observations from a re-analysis of the deposited data

Results flagged for a closer look

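PRSS35 and SERPINB2 were called for a difference between the responses to the rise from 25 mM and that from 5 mM. The test of that difference used all 8 libraries (limma, adjusted p = 0.0361 for each). The differences were -1.97 and 0.73 in log2 change. Both calls were lost with a pseudocount of 0.1 or 0.5, with a replicate block and without the mean-variance trend. PRSS35 read 0.838 to 1.48 RPKM in the 25 mM and 25 to 50 mM libraries, near the filter. RANBP3L is given as a description only, with a difference of -1.50. This gene, a Ran-binding protein, read 0.0465 and 0.0685 RPKM at 25 mM, 0.126 and 0.0248 RPKM at 25 to 50 mM, 0.518 and 0.544 RPKM at 5 mM and 3.35 and 3.47 RPKM at 5 to 50 mM. It passed the filter of 1 RPKM only through the 5 to 50 mM libraries, where it is high, and its call supports nothing.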

How the results depend on the processing

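The calls were few and moved with the settings. Against 1 gene after the rise from 25 mM, 0 were called without the filter, 0 without the mean-variance trend, 2 by quantile normalization, 7 by voom on recovered reads and 16 by voom with median-scaled library sizes, 3 with robust variances, 4 after centring, 4 in the joint fit of 8 libraries and 5 after GC correction; the cause was not tested. Leaving out 1 library gave 0 to 777 calls, with the lone library of a group assumed to vary like the others. TAGLN kept a log2 change of 0.68 to 0.77 under every setting run. Against 3 genes in the difference between the rises, 0 were called with a pseudocount of 0.1, 0 with one of 0.5, 0 with a mean of at least 5 RPKM, 1 without the trend and 5 after GC correction, and 0 to 6 without single libraries. Within the 4 libraries the groups share only replicate number 3, so a replicate block was fitted over all 8 libraries only, where it called 0 genes for the rise and 0 for the difference. Deviations of same-numbered libraries correlated at 0.26 (replicate 1 at 25 and 5 mM) and -0.22 (replicate 3 at 25 mM and 25 to 50 mM). Each deviation is from a mean of 2 libraries, and in the second pair the partner libraries carry different numbers. The correlations therefore cannot decide whether the numbers pair the samples, and the main fits used no pairing.

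Some uncalled genes changed sign, none of them called under the setting concerned. After centring the log2 change was 0.0384 for YAP1, 0.00095 for HK2 and 0.0464 for IL6. Quantile normalization gave 0.00794 for YAP1, 0.0185 for SPRY4, 0.0155 for HK2 and 0.0874 for IL6. The replicate block gave 0.00428 for YAP1 and 0.0115 for IL6. The scaled voom fit gave 0.0407 for YAP1, 0.000394 for HK2 and 0.0482 for IL6. GC correction gave 0.0152 for YAP1, 0.0474 for MAPK3 and 0.0209 for IL6. Without single libraries the values ran from -0.0539 to 0.0329 for YAP1, -0.019 to 0.0641 for TEAD1, -0.286 to 0.0213 for DUSP6, -0.237 to 0.091 for SPRY4, -0.0491 to 0.164 for SLC5A3, -0.628 to 0.111 for IFIT1 and -0.0677 to 0.0627 for IL6. With 2 libraries per group, the median half-width of the 95% interval was 0.18 on the log2 scale (1.14-fold). These intervals are not adjusted for the number of genes tested, so larger changes could also miss the threshold. THBS1, with a log2 change of 0.40 (interval 0.30 to 0.50), did not pass (limma adjusted p = 0.139). A gene that did not pass is therefore not shown to be unchanged.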
